A study of Mus musculus with 2 samples.

Results

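Granzymes, perforin and the granule protein Nkg7 were described in single cells taken from Colon26 tumours of mice. The 10 genes were named by their symbols, with earlier results of these data known: Gzma, Gzmb, Gzmc, Gzmd, Gzme, Gzmf, Gzmk, Gzmm, Prf1 and Nkg7. All 10 were found among the 22836 genes of the deposited count table. The table holds 2 further granzyme genes, Gzmg and Gzmn, and their values are given where they help to read those of their neighbours.

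Colon26 is a colon carcinoma line of BALB/c mice, and its cells were grown under the skin of the flank of wild-type BALB/c mice. The Control group (3 mice) was untreated. The minP1 group (4 mice) received minP1, an immunostimulatory peptide of the nuclear protein HMGN1, into the peritoneum at 0.08 µg on day 9 after the tumour cells were given. The PDL1 group (3 mice) received an antibody to PD-L1, clone 10F.9G2, at 200 µg on days 4 and 8, and the minP1_PDL1 group (4 mice) received both agents. PD-L1 is the ligand of the inhibitory receptor PD-1, and the antibody blocks that contact. On day 10 the tumours were digested, tumour cells and dead cells were depleted on Percoll, and the cells of each mouse were marked with hashtagged anti-CD45 antibody before whole-transcriptome sequencing on the BD Rhapsody system. Each mouse is 1 biological replicate.

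Cytotoxic lymphocytes kill by releasing granules at the contact with a target cell. Perforin, the product of Prf1, forms pores, and granzymes are serine proteases that pass through them and cut proteins of the target cell. Granzyme B cuts after aspartate and starts the caspase pathway, granzyme A cuts after basic residues, and granzyme M and granzyme K have preferences of their own. Mice carry a series of granzyme genes, Gzmc to Gzmg and Gzmn, that has no direct counterpart in people. Nkg7 is a membrane protein of the granules that takes part in their release. Natural killer (NK) cells and CD8 T cells are the best known sources of these proteins, and mast cells and regulatory T cells can also make granzyme B.

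The genes lie on 4 chromosomes of the mouse genome (GRCm38/mm10, GENCODE annotation). Gzme (chr14:56117626-56120625), Gzmd (chr14:56129556-56132608), Gzmg (chr14:56156582-56159579), Gzmn (chr14:56165797-56174599), Gzmf (chr14:56205263-56211417), Gzmc (chr14:56231441-56234656) and Gzmb (chr14:56258838-56262260) follow each other in this order on the minus strand of chromosome 14. Gzma (chr13:113093825-113100981) and Gzmk (chr13:113171608-113225908) are neighbours on the minus strand of chromosome 13. Prf1 (chr10:61297833-61304680) and Gzmm (chr10:79689020-79695261) lie far apart on the plus strand of chromosome 10, and Nkg7 (chr7:43437073-43438249) is on the plus strand of chromosome 7.

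The chromosome 14 genes are near copies, so reads of a gene can be shared with its neighbours. The ends of their coding sequences are shown because the assay reads the 3′ part of a message, and because they show how much of each gene can be told from Gzmd. Each is the last 120 coding bases of the reference transcript with the stop codon. Capitals mark the bases that differ from Gzmd at the same position, compared letter by letter without gaps. The count of such bases was 9 in Gzme, 17 in Gzmg, 19 in Gzmf and 57 in Gzmc.
Gzmd: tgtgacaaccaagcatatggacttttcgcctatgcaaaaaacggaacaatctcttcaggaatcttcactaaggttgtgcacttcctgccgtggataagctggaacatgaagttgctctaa
Gzme: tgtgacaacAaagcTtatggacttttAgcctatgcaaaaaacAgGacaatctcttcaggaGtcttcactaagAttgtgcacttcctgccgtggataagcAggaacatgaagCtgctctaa
Gzmg: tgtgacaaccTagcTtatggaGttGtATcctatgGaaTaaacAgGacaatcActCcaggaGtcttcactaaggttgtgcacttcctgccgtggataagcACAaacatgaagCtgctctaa
Gzmf: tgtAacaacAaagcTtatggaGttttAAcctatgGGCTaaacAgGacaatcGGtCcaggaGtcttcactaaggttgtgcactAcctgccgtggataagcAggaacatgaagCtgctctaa
Gzmc: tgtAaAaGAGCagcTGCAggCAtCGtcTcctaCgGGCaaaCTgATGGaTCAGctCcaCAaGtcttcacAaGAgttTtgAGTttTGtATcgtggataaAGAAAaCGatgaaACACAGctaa

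Over the whole coding sequence Gzme and Gzmd were 93.3% identical, Gzmf and Gzmg 86.9%, Gzmd and Gzmc 71.4%, and Gzmc and Gzmb 76.3%. Of the 50-base windows of the transcript, 21.9% of those in Gzmd and 20.6% of those in Gzme also occurred in another granzyme transcript. The share was 19.8% for Gzmg, 7.36% for Gzmf, 6.06% for Gzmn and 4.14% for Gzmc. It was 0% for Gzma, Gzmb, Gzmk, Gzmm, Prf1 and Nkg7. Counts of Gzmd, Gzme and Gzmg are therefore uncertain as to which of these genes a read came from, since how the authors placed reads with several matches is not given in the sources used here.

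The 250 bases before the start are shown for Gzmb, Gzmc, Gzmd and Gzmf, because these genes of 1 cluster were read at unlike levels in the classes below (RefSeq, GRCm38.p6, minus strand). The reference is not of the BALB/c strain. Capitals mark matches, on either strand, to TGTGGT (the core bound by RUNX factors), TGANTCA (AP-1) or TGACGTCA (CRE).
Gzmb, chr14:56262335-56262584: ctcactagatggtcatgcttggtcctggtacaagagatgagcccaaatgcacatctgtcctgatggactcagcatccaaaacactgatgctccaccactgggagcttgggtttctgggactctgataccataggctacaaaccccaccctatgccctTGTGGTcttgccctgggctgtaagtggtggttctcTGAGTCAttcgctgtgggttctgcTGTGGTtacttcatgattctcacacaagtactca
Gzmc, chr14:56234658-56234907: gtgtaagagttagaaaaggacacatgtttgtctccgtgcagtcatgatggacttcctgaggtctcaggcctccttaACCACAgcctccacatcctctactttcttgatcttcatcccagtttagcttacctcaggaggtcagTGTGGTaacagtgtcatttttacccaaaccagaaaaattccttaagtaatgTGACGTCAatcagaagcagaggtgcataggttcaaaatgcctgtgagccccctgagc
Gzmd, chr14:56132594-56132843: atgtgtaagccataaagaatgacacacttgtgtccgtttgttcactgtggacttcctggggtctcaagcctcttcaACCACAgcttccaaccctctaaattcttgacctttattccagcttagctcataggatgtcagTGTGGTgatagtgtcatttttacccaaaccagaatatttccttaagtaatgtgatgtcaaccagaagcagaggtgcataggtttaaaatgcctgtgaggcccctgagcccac
Gzmf, chr14:56211408-56211657: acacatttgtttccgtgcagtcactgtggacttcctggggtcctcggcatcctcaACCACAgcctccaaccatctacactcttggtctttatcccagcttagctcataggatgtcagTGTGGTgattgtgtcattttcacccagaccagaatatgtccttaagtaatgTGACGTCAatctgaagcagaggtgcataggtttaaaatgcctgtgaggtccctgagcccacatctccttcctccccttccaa

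In this window Gzme and Gzmd were 94.8% identical, Gzmd and Gzmc 80.5%, and Gzmf and Gzmc 70.2%, whereas Gzmc and Gzmb were 47.5% identical. The RUNX core was found in 6 of the 7 granzyme genes of chromosome 14, Gzmn being the gene without a match, and in 14.0% of 32817 mouse promoters of the same length. The CRE letters were found in Gzmc, Gzmf and Gzmg, 3 of the 7, and in 1.55% of all promoters. The AP-1 letters were found in Gzmb (starting 58 bases before the start, or -58) and in 6.75% of all promoters. In Gzmc the RUNX core began at -174 on the opposite strand and at -108, with the CRE letters at -57. In Gzmd the RUNX matches were at -174 and -112 with no CRE match, and in Gzmf at -195 and -133 with the CRE letters at -82. The T-box letters AGGTGTGA were found in 0 of the 7 and in 1.12% of all promoters, and Nkg7 holds them at -14. The letters CCGGAAG, bound by ETS factors, were found in 0 of the 7 and in 6.90% of all promoters. These matches are descriptions of letters and no measurement of binding.

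After removal of 383 barcodes with over 25% of their reads in 36 mitochondrial genes, 7732 cells of the 14 mice were kept, with 26007834 to 51230461 reads per mouse and a median of 30312 to 57305 reads per cell. Counts are reads and not molecules, since a filled entry of the table held a median of 10 reads. Cells were clustered without the granzyme genes, Prf1 and Nkg7 and clusters were named from marker genes. An NK class of 1467 cells came from 2 clusters, cluster 0 (961 cells, led by Klri2, Serpinb9b and Klra3) and cluster 6 (506 cells, led by Krt83, Xcl1 and Ncr1). CD8 T cells (298 cells), regulatory T cells (658) and other T cells (700, of which 216 had reads of Cd8a or Cd8b1 without Cd4 and Foxp3) were the T cell classes with at least 10 cells in every mouse. The CD8 T cluster was led by Slc17a6, Cd8a and Nrn1, with Pdcd1 and Lag3 among its markers. It held 238 of the 470 cells counted as CD8 T cells by their reads, so the class is only a part of them. Ncr1 was at 742 ± 120 CPM in NK cells, Cd8a at 876 ± 223 CPM in CD8 T cells and Foxp3 at 786 ± 118 CPM in regulatory T cells (SD, n = 14). These genes were among the markers that gave the names, so their levels describe the classes and are no check of the names. Cd8a was also at 335 ± 134 CPM in other T cells. No cluster met the rule for type 1 innate lymphoid cells, and 1266 cells in 6 clusters stayed unnamed. The labels call the cells CD45+, but 493 cells were named fibroblast or stromal and 54 Colon26 tumour from their markers. A level is the CPM of a class and mouse, that is, the summed reads of the gene scaled to the summed reads of these cells, so levels are compared between classes for 1 gene and not between genes. Because classes come from the same cells, differences between classes are described without a test.

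Gzma, the tryptase of the family, was read most in NK cells. In cluster 0 it ranged from 7324 to 11897 CPM over the 14 mice, with a mean of 9506 ± 1300 CPM (SD, n = 14). In cluster 6 it ranged from 1709 to 8126 CPM with a mean of 5154 ± 1722 CPM, so the ranges of these clusters overlapped. The T cell classes were far lower: Gzma was at 472 ± 299 CPM in other T cells, 401 ± 368 CPM in regulatory T cells and 209 ± 290 CPM in CD8 T cells. In CD8 T cells the values ran from 4.07 to 1089 CPM with a median of 92.0 CPM. No mouse had more Gzma CPM in its CD8 T cells than in its neutrophils (0 of 14). Without cells of a doublet score above 0.5 Gzma was at 117 CPM in regulatory T cells, and CD8 T cells were above neutrophils in 3 of the 10 mice with enough cells.

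Gzmb, the aspartate protease, was spread over more classes. NK cluster 0 had 3832 ± 815 CPM and NK cluster 6 had 3422 ± 1097 CPM (SD, n = 14), values that did not differ beyond their spread. CD8 T cells had 2574 ± 1076 CPM, with mice from 1075 to 4215 CPM. Regulatory T cells had 1985 ± 593 CPM, with mice from 1248 to 3655 CPM. The ranges of CD8 T cells and regulatory T cells overlapped, and each was above the neutrophils of the same mouse in 13 of 14 mice. Other T cells had 684 ± 264 CPM, with mice from 175 to 1079 CPM, and were above the neutrophils in 6 of 14 mice, or in 12 of 12 mice without cells of a doublet score above 0.5 in either class. Within other T cells the 216 cells with Cd8 reads had 1154 ± 658 CPM, and those with Cd4 reads had 238 ± 314.2 CPM in the 10 mice with enough cells. The ratio of Gzmb to Gzma reads set NK cells apart from CD8 T cells and regulatory T cells. It was 0.50 ± 0.09 in NK cells with a range of 0.36 to 0.72, while its median was 22.1 in CD8 T cells and 5.23 in regulatory T cells, with ranges that began at 1.98 and 1.92. Other T cells ran from 0.64 to 4.97 and overlapped with each of these classes. The divisor of the ratio was low in CD8 T cells and regulatory T cells, with a mean Gzma below that of neutrophils. In CD8 T cells Gzma is not read here as expression.

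Prf1 was read most in NK cells, next in CD8 T cells. The level was 765 ± 134 CPM in NK cluster 0 (580 to 990 CPM), 565 ± 91.5 CPM in NK cluster 6 (450 to 740 CPM) and 369 ± 117 CPM in CD8 T cells (137 to 575 CPM). CD8 T cells were above the neutrophils of their mouse in 14 of 14 mice. Regulatory T cells had 61.6 ± 52.2 CPM and other T cells 57.2 ± 51.1 CPM, beside 116 ± 61.4 CPM in neutrophils. Without cells of a doublet score above 0.5 the neutrophils were at 18.0 ± 20.4 CPM (12 mice), regulatory T cells at 35.3 ± 26.6 CPM and other T cells at 41.1 ± 53.6 CPM, so that the order of the means turned. Regulatory T cells thus combined a Gzmb level in the range of CD8 T cells with a Prf1 level whose highest mouse, 154 CPM, only just passed the lowest mouse of CD8 T cells. Nkg7 was at 1775 ± 172 CPM in NK cluster 0, 1539 ± 255 CPM in CD8 T cells and 1244 ± 135 CPM in NK cluster 6. The first and the last of these did not overlap (1532 to 2106 against 990 to 1435 CPM). Other T cells had 667 ± 265 CPM of Nkg7, those with Cd8 reads 1050 ± 335 CPM, and regulatory T cells 400 ± 219 CPM.

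**Figure D1:**
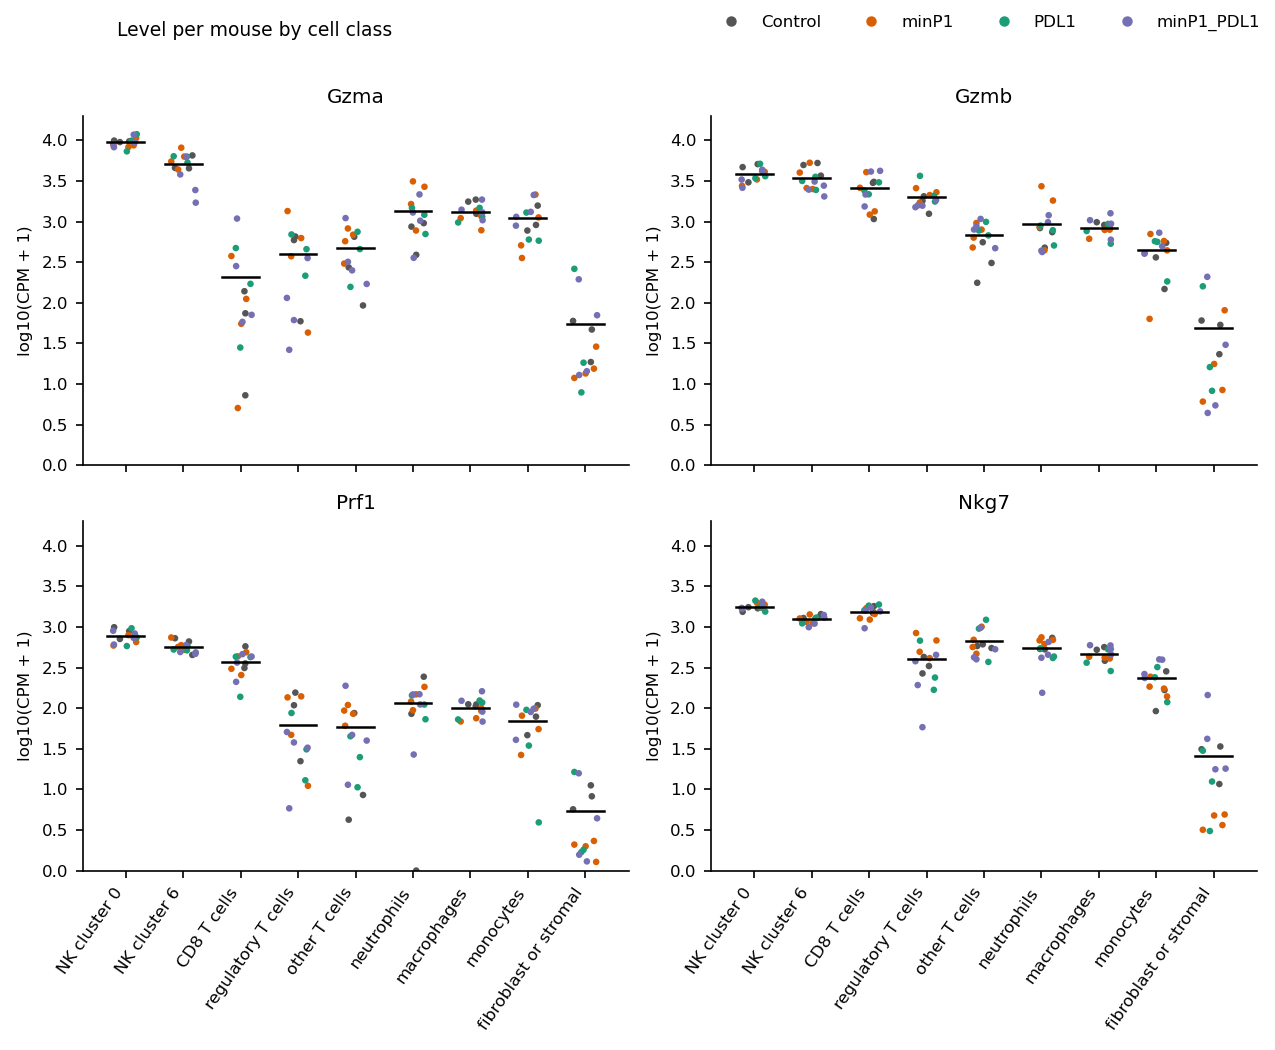
Level of Gzma, Gzmb, Prf1 and Nkg7 in 9 cell classes, as log10(CPM + 1) on the vertical axis, with 1 point per mouse coloured by group and a bar at the mean. Gzma points of CD8 T cells spread from 4.07 to 1089 CPM, well below the NK cells, while Gzmb points of CD8 T cells and regulatory T cells overlap.

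Gzmc, Gzmd, Gzme and Gzmf, the granzymes special to rodents, were read mainly in NK cluster 6. Gzmc was at 4520 ± 1296 CPM there (2145 to 6905 CPM, SD, n = 14) against 587 ± 597 CPM in NK cluster 0 (68.0 to 2430 CPM). These clusters therefore differed in opposite ways for Gzma and Gzmc, although neither gene was used to make them. Elsewhere Gzmc was at 326 ± 141 CPM in macrophages, 299 ± 327 CPM in neutrophils, 270 ± 292 CPM in CD8 T cells, 213 ± 470 CPM in regulatory T cells and 17.3 ± 16.5 CPM in other T cells. The mean in regulatory T cells rested on 2 mice, minP1 mouse 4 with 1567 CPM and minP1_PDL1 mouse 2 with 1010 CPM, and the median of the 14 mice was 33 CPM. The mean was 25.7 ± 21.9 CPM when cells of a doublet score above 0.5 were left out.

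Gzmd was at 715 ± 602 CPM in NK cluster 6 (44.6 to 2203 CPM) and 31 ± 42.6 CPM in cluster 0. Gzme was at 311.7 ± 264 CPM (48.7 to 953 CPM) and 16.4 ± 20.1 CPM. Gzmf was at 823 ± 1474 CPM (0.68 to 5606 CPM, median 253 CPM) and 5.74 ± 11.5 CPM. For each of these 3 genes the mice of cluster 6 were spread more widely than for Gzmc, with an SD near to or above the mean. Reads of them were found in CD8 T cells too, with Gzmd at 102 ± 136 CPM, Gzme at 72.8 ± 103 CPM and Gzmf at 281 ± 381 CPM. The medians were 38.5, 37.6 and 84.4 CPM. CD8 T cells were above the macrophages of their mouse in 6 of 14 mice for Gzmd and in 9 of 14 for Gzme and for Gzmf. The part of RNA from other cells in these levels was not tested. Gzmd was at 64.5 CPM in CD8 T cells when cells of a doublet score above 0.5 were left out. For Gzmf the CD8 T cells ran from 0 in 2 mice to 1036 CPM, so that their highest mouse was inside the range of NK cluster 6 and their lowest below it. Their neighbours were unlike: Gzmg was read in NK cluster 6 at 254 CPM over all cells and in CD8 T cells at 0.42 CPM, and Gzmn at 4.34 and 0.57 CPM.

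**Figure D2:**
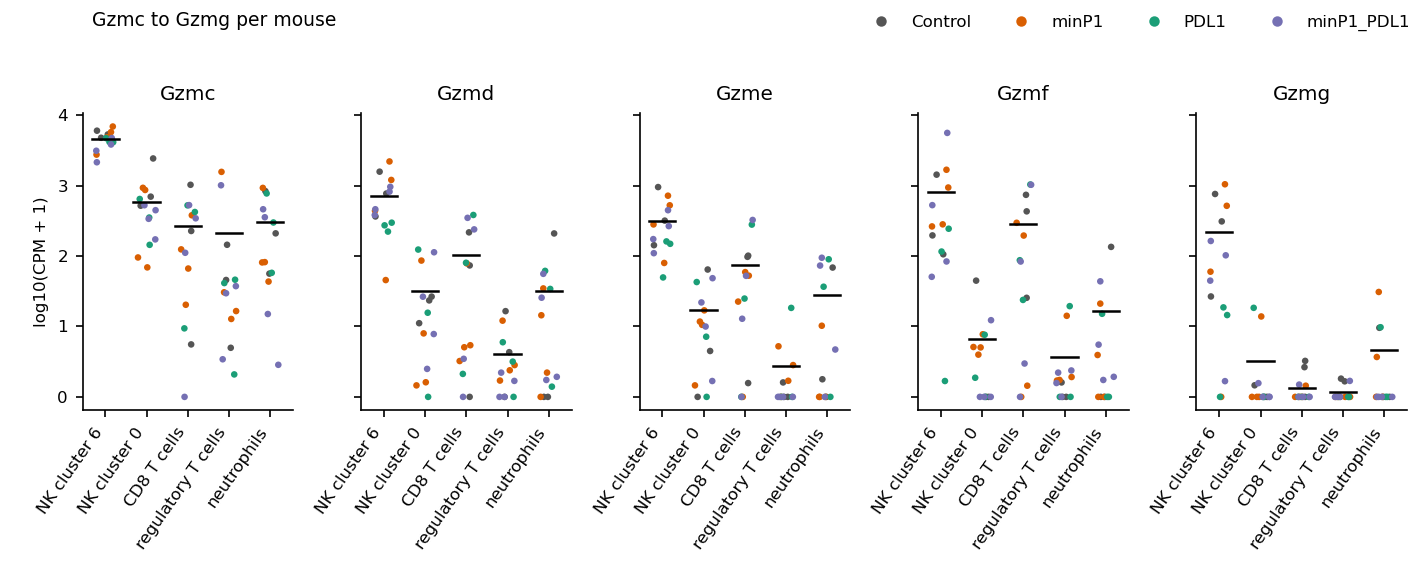
Level of Gzmc, Gzmd, Gzme, Gzmf and Gzmg as log10(CPM + 1) in 5 cell classes, with 1 point per mouse and a bar at the mean. NK cluster 6 is highest for each of the 5 genes, and CD8 T cells come near it for Gzmf, from 0 to 1036 CPM.

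Gzmk and Gzmm were low in every class. Gzmk, known from early effector and memory CD8 T cells, was at 32.6 ± 27.0 CPM in other T cells (48.2 ± 50.4 CPM in those with Cd8 reads), 25.9 ± 31.5 CPM in CD8 T cells, 14.1 ± 9.65 CPM in NK cluster 0 and 5.61 ± 4.05 CPM in NK cluster 6. Gzma, its neighbour on chromosome 13, had a higher mean in both NK clusters than in CD8 T cells or other T cells, the opposite of Gzmk. Regulatory T cells did not share this reversal, with Gzmk at 4.42 ± 9.35 CPM and at 0 in 8 of 14 mice, below both NK clusters in mean. Gzmm was at 16.4 ± 17.8 CPM in CD8 T cells, 14.7 ± 16.1 CPM in other T cells (33.3 ± 36.6 CPM in those with Cd8 reads) and 7.54 ± 5.20 CPM in NK cells. In CD8 T cells and other T cells the spread between mice was near to or above the mean for both genes, and these classes did not differ from each other beyond it.

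Mast cells or basophils, a cluster of 92 cells led by Cpa3, Tpsb2 and Tpsab1, had the highest Gzmb level. It was 5017 ± 1766 CPM in the 9 mice with at least 5 such cells, from 2551 to 7716 CPM, and 4515 CPM over all 92 cells. The other granule genes were low there, with Gzma at 69.7 ± 84.7 CPM, Gzmc at 26.0 ± 56.9 CPM and Prf1 at 9.27 ± 16.3 CPM. Gzmk was read in 0 of the 92 cells, which allows a share of up to 3.93% of cells with a read (95% Clopper-Pearson, counting error only). Of these cells 43 had reads of the mast cell protease Mcpt4 but none of the basophil protease Mcpt8, and their Gzmb level was 2285 CPM. The reverse held in 26 cells, at 9418 CPM. Gzmb was read in 79.1% of the former and 61.5% of the latter, so both sets contributed.

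The chromosome 14 cluster holds the mast cell proteases beside the granzymes. In the mast cell or basophil class Cma1 was at 22088 CPM, Mcpt4 at 11935 CPM, Ctsg at 1000 CPM and Mcpt8 at 962 CPM over all cells. These genes lie on the far side of Gzme. From there the level dropped to 1.79 CPM for Gzme, 11.6 CPM for Gzmd, 5.38 CPM for Gzmg, 0 for Gzmn, 3.43 CPM for Gzmf and 27.4 CPM for Gzmc, and stood at 4515 CPM for Gzmb, 24181 bp beyond Gzmc. NK cluster 6 had the other part of the row, with Cma1 at 5.92 CPM, Mcpt4 at 1.40 CPM and levels of 345 CPM for Gzme, 749 CPM for Gzmd and 4544 CPM for Gzmc. NK cluster 0 had 51.6 CPM of Cma1, 15.8 CPM of Gzme and 599 CPM of Gzmc. Gzmb was thus at 3532 to 4515 CPM in these 3 classes, whereas in the mast cell or basophil class none of the genes between it and the mast cell proteases was above 27.4 CPM.

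**Figure D3:**
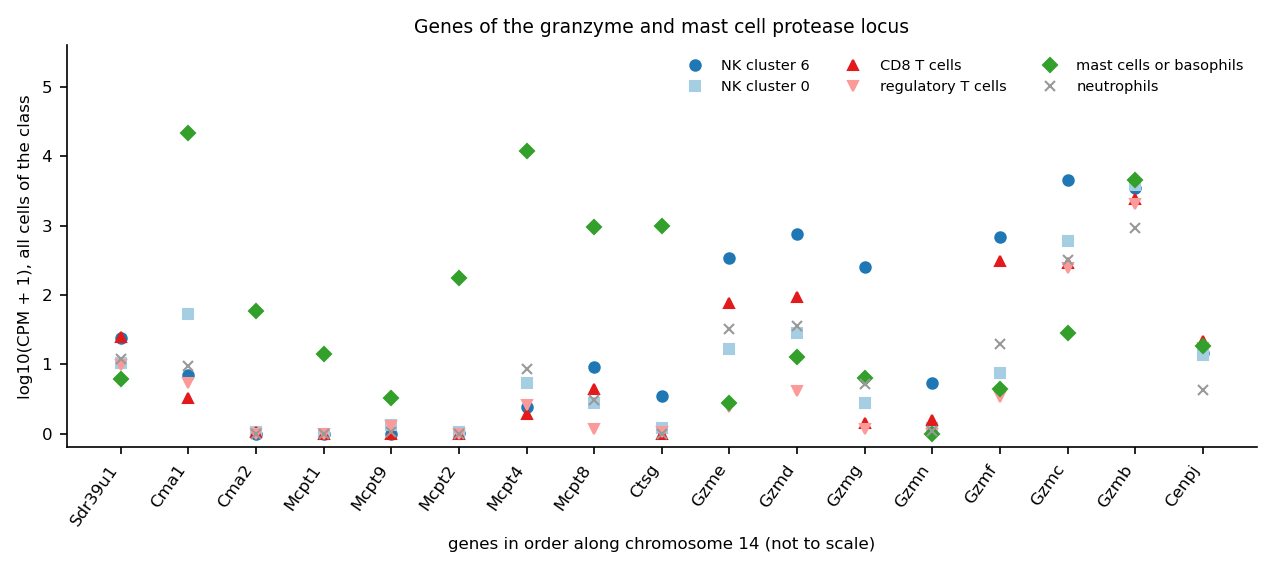
Level, as log10(CPM + 1) over all cells of a class, of the genes of the chromosome 14 cluster in their order along the chromosome, with 1 coloured point per class. Genes absent from the count table are left out. Mast cells or basophils are high at Cma1, Mcpt4 and Gzmb (22088, 11935 and 4515 CPM), and NK cluster 6 from Gzme to Gzmb with the exception of Gzmn (4.34 CPM).

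Granzyme reads were also found in myeloid classes. Gzma was at 1333 ± 826 CPM in neutrophils, 1321 ± 330 CPM in macrophages and 54.4 ± 76.9 CPM in the stromal class (SD, n = 14), and Gzmb at 936 ± 637, 845 ± 192 and 47.9 ± 62.7 CPM in the same order. The ratio of Gzmb to Gzma was 0.77 ± 0.28 in neutrophils and 0.66 ± 0.18 in macrophages, near that of NK cells. The NK marker Ncr1 was at 137 ± 55.4 CPM in neutrophils, 133 ± 27.0 CPM in macrophages and 5.21 ± 6.52 CPM in the stromal class. The summed level of the 14 NK markers was 1126 ± 318 CPM in neutrophils (569 to 1725 CPM, 2 markers at 0) and 896 ± 173 CPM in macrophages (678 to 1164 CPM, none at 0), beside 4732 ± 214 CPM in NK cells. A doublet score above 0.5 was given to 47.8% of macrophages and 35.9% of neutrophils but to 4.87% of NK cells. Without such cells Gzma was at 709 CPM in macrophages and 503 CPM in neutrophils (12 mice), and Gzmb at 406 and 222 CPM. The part of NK cell RNA in the myeloid values was not tested further, and no myeloid level is read here as expression by those cells.

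NK cells supplied a large part of the reads of most of these genes. They made up 18.9% of the kept cells and 10.7% of the reads, and held 37.8 to 62.9% of Gzma reads over the 14 mice. They held 61.2 ± 8.28% of Gzmc reads and 47.7 ± 5.01% of Prf1 reads (SD, n = 14). For Gzmb the share was 34.6 ± 7.67% and for Nkg7 31.8 ± 3.68%. Mice differed far more in the shares of Gzmd (3.61 to 91.1%), Gzme (13.7 to 93.5%) and Gzmf (0.13 to 93.4%). CD8 T cells, 3.85% of cells, held 8.99% of Gzmb reads and 18.7% of Gzmf reads. Regulatory T cells held 6.55% of Gzmb reads, and mast cells or basophils, 1.17% of cells, held 4.73%. Larger shares than in these classes lay in macrophages, 13.18% of cells, with 15.98% of Gzmb, 18.49% of Gzma and 20.89% of Gzmf reads. The unnamed clusters held 16.49% of Gzmb and 16.19% of Gzma reads. As stated above, the macrophage reads are not read here as expression by those cells.

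The share of cells with a read gave a like picture at the level of cells. Because classes differ in depth, from a median of 17542.5 reads per cell in other T cells to 54809 in CD8 T cells and 102925 in macrophages, each cell was also thinned to 10000 reads and cells with fewer were left out. In NK cells 82.6% had a read of Gzma, 82.7% of Gzmb, 73.6% of Prf1 and 33.7% of Gzmc (means over 14 mice), and at 10000 reads these were 79.0%, 81.0%, 69.3% and 29.6%. Cluster 0 and cluster 6 differed at equal depth as they did in level, with 90.3% and 57.7% of cells for Gzma and 20.0% and 47.4% for Gzmc. In CD8 T cells Gzmb was read in 69.8% of cells and Prf1 in 64.6%, or 60.4% and 51.3% at 10000 reads. Gzma was read in 40.0% of CD8 T cells but in 17.0% at 10000 reads, below the 31.9% of neutrophils at that depth, so it is not read here as expression. Without cells of a doublet score above 0.5 these shares were 14.6% and 19.8%. Of regulatory T cells 67.1% had a read of Gzmb and 12.2% of Prf1, or 62.5% and 9.09% at 10000 reads, where neutrophils had 38.7% and 16.5%. Without cells of a doublet score above 0.5 the Prf1 share at that depth was 6.89 ± 4.52% in regulatory T cells and 7.21 ± 5.67% in neutrophils, and the Gzmb share 60.4% and 20.2%. The Prf1 share of regulatory T cells was thus not above that of neutrophils in either case, and is not read as expression, although their CPM was above that of neutrophils in 10 of 12 mice without such cells. Gzmk was read in 14.4% of CD8 T cells and 7.57% of other T cells, or 9.79% and 6.46% at 10000 reads.

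**Figure D4:**
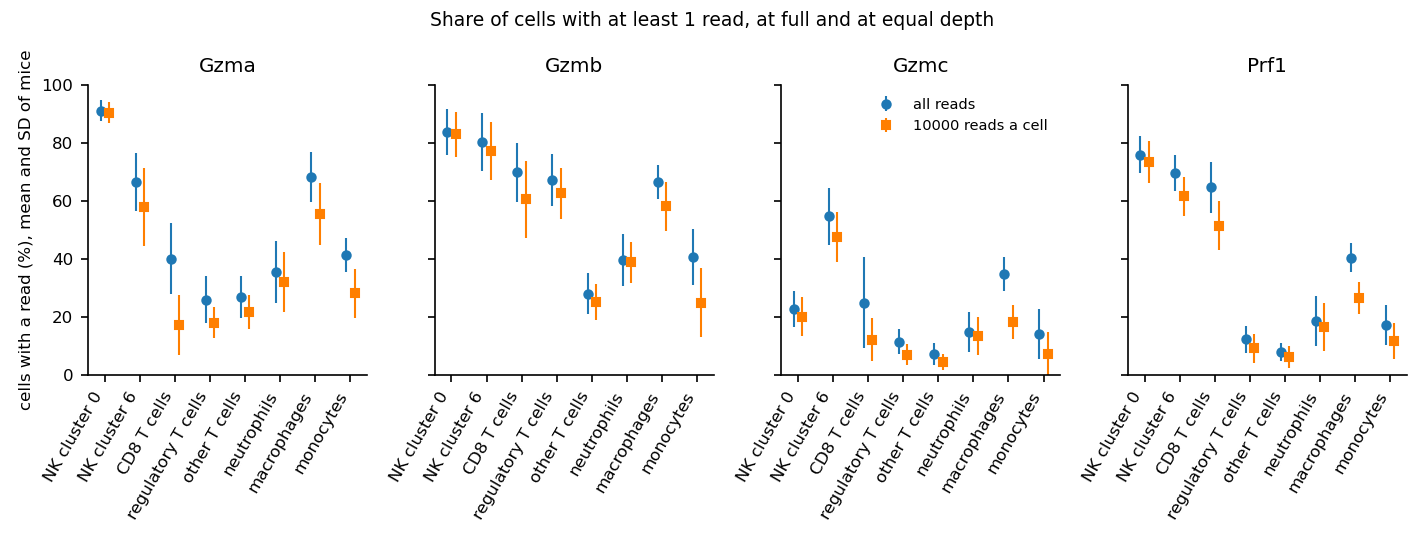
Share of cells with at least 1 read of Gzma, Gzmb, Gzmc and Prf1 in each class, in percent, from all reads and after thinning each cell to 10000 reads. Points stand for the means over mice and bars for the SD. Thinning moves Gzma of CD8 T cells from 40.0% to 17.0% and leaves Gzma of NK cluster 0 at 90.3%.

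Within a class, reads of these genes came together in the same cells. In NK cells 72.9% had both Gzma and Gzmb, against a product of the separate shares of 68.5%, and the share was above the product in 14 of 14 mice. Gzmb and Prf1 were read together in 66.1% of NK cells against 61.1%, and Gzmc and Gzmd in 7.03% against 2.90%, each in 14 of 14 mice. Gzma and Gzmc were an exception, with 27.8% against 28.0%, above the product in 8 of 14 mice. In CD8 T cells Gzmb and Prf1 were read together in 52.4% against 45.4% (13 of 14 mice). Of CD8 T cells 13.7% had both Gzmb and Gzmk, and 0.69% had Gzmk alone. In regulatory T cells 56.4% had Gzmb without Prf1 and 10.7% had both. Depth differs from cell to cell and moves with all of these shares, and its part was not tested.

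The genes most like each member over the classes were found by Pearson's r of log2(CPM + 1) over 18 classes of at least 50 cells, among 12720 genes with at least 10 CPM in a class, as a description. The classes share 1 library and each value rests on unequal depth. They include the myeloid classes, where NK markers were read as well, and the part of NK cell RNA in r was not tested. Gzma was most like Ncr1 (r = 0.985), an activating NK receptor, then Klra7 (0.961), Klra3 (0.954), Klri2 (0.947) and Car2 (0.940). Gzmb was most like Cst7 (0.965), which encodes cystatin F, then Ptpn7 (0.946), Prkcb (0.931), Gm19585 (0.909) and I730030J21Rik (0.902). Prf1 was most like Xcl1 (0.974), Serpinb9b (0.964), Serpinb6b (0.953), Nkg7 (0.9502) and Klrd1 (0.948), and Nkg7 like Xcl1 (0.961), Prf1 (0.9502) and Tbx21 (0.944). Gzmc and Gzmd were each other's most like gene (0.900), with Xcl1 next for Gzmc (0.897) and Gzme next for Gzmd (0.850). Gzme led with Tnfsf4 (0.879) and Ckm (0.860) before Gzmf (0.853), and Gzmf with Gm156 (0.891) before Gzme. Gzmk was most like Chst2 (0.944) and Fam78a (0.918), and Gzmm like Crtam (0.842). The sharing of windows between Gzmd and Gzme stated above bears on their likeness.

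The treatments were compared over mice, with reads summed per class and mouse and edgeR's quasi-likelihood test over all genes, adjusted by Benjamini-Hochberg at 0.05. The 5 pairs of groups and the interaction of the agents were tested in each class. No gene passed in NK cells, CD8 T cells, regulatory T cells, other T cells or all kept cells together, so percentages called were 0.0% of 12197, 10001, 10465, 9354 and 18410 genes, and 0 of the members were called. DESeq2 called 6 to 41 genes in NK cells, 0 to 12 in CD8 T cells, 3 to 19 in regulatory T cells, 4 to 40 in other T cells and 8 to 165 in all cells, and none was a member. The differences below did not pass the correction in this fit. Calls of members that edgeR made when no filter on low counts was applied are given beside the class they belong to. Per the labels the groups were processed in separate runs of the instrument, while all barcodes carry 1 library name and the run of a mouse is not given, so run and group cannot be told apart.

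In NK cells all 10 members were tested. At an unadjusted p under 0.05 there were 1 of them for minP1 against Control, 2 for PDL1 against Control, 2 for minP1_PDL1 against Control, 1 for minP1_PDL1 against minP1, 1 for minP1_PDL1 against PDL1 and 0 for the interaction. The background over all genes was 3.07%, 5.09%, 5.73%, 5.23%, 5.53% and 4.38% in that order. The groups did not overlap in CPM for 0, 3, 2, 0 and 1 members in the 5 pairs, beside 5.61%, 10.8%, 6.21%, 2.98% and 5.14% of all genes. The median log2 fold change of the members was -0.10, -0.27 and -0.29 for the 3 treatments against Control, and that of all genes was -0.01, -0.02 and -0.01. These 3 comparisons share the Control mice.

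Gzmc in NK cells was 2946, 3119 and 4529 CPM in the Control mice and 2179, 2053, 1959 and 1200 CPM in the minP1_PDL1 mice. All mice of the combination were below all Control mice. The log2 fold change was -0.96 (SE 0.24, edgeR adjusted p = 0.825). The minP1 mice had 1798, 3701, 3546 and 2591 CPM and overlapped with Control and with the combination. The PDL1 mice had 2623, 2771 and 2120 CPM, also all below all Control mice, and overlapped with the combination. On average both groups were between Control and the combination. Against minP1 the combination differed by -0.65 (SE 0.22, edgeR adjusted p = 0.884). In all kept cells together Gzmc was at 326 ± 130 CPM under the combination and 622 ± 120 CPM in Control (log2 fold change -0.93, SE 0.31, edgeR adjusted p = 0.386), with NK cells at 18.7 ± 3.42% of the cells under the combination and 20.1 ± 1.87% in Control.

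Gzmb in NK cells was 5179, 4221 and 4097 CPM in the Control mice and 3696, 2812, 3337 and 2692 CPM in the minP1_PDL1 mice, again without overlap (log2 fold change -0.55, SE 0.17, edgeR adjusted p = 0.825). The minP1 mice had 2602, 3267, 4635 and 3675 CPM and the PDL1 mice 4034, 2864 and 3590 CPM. All PDL1 mice were thus below all Control mice too, whereas minP1 overlapped with Control. Against Control the log2 fold change was -0.37 for minP1 (SE 0.17, edgeR adjusted p = 1.00) and for PDL1 (SE 0.18, edgeR adjusted p = 0.970). Within NK cluster 6 alone Gzmb was at 2598 ± 454 CPM under the combination and 4638 ± 844 CPM in Control (log2 fold change -0.86, SE 0.22, edgeR adjusted p = 1.00). Within NK cluster 0, the larger cluster, these groups overlapped. Gzmb there was 5099, 3043 and 4684 CPM in Control mice and 4350, 3292, 4043 and 2608 CPM in minP1_PDL1 mice. The share of cluster 6 among NK cells was 36.6% for untreated mice, 34.3% after minP1, 34.9% after the antibody and 32.8% after both, and the NK marker sum was 4571, 4895, 4621 and 4773 CPM in that order. The parts of these in the differences were not tested.

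The other members of NK cells stayed closer to Control or varied more. Prf1 was at 723 ± 50.7 CPM in Control and 639 ± 74.9 CPM under the combination (log2 fold change -0.21, SE 0.13), and Nkg7 at 1480 ± 17.4 and 1499 ± 148 CPM (-0.01, SE 0.11). Gzma was at 7217 ± 719 CPM in Control and 6684 ± 1562 CPM under the combination, with overlap. Gzmd was at 525 ± 391 CPM in Control and 160 ± 16.3 CPM in PDL1 without overlap (log2 fold change -1.71, SE 0.81, edgeR adjusted p = 0.968). Gzme was at 284 ± 263 and 69.5 ± 40.3 CPM in the same groups (-2.03, SE 0.75, edgeR adjusted p = 0.951). Gzmf under the combination was at 583 ± 940 CPM against 61.2 ± 58.3 CPM in PDL1 (3.18, SE 1.42, edgeR adjusted p = 0.875), a mean that 1 mouse with 1983 CPM set.

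**Figure D5:**
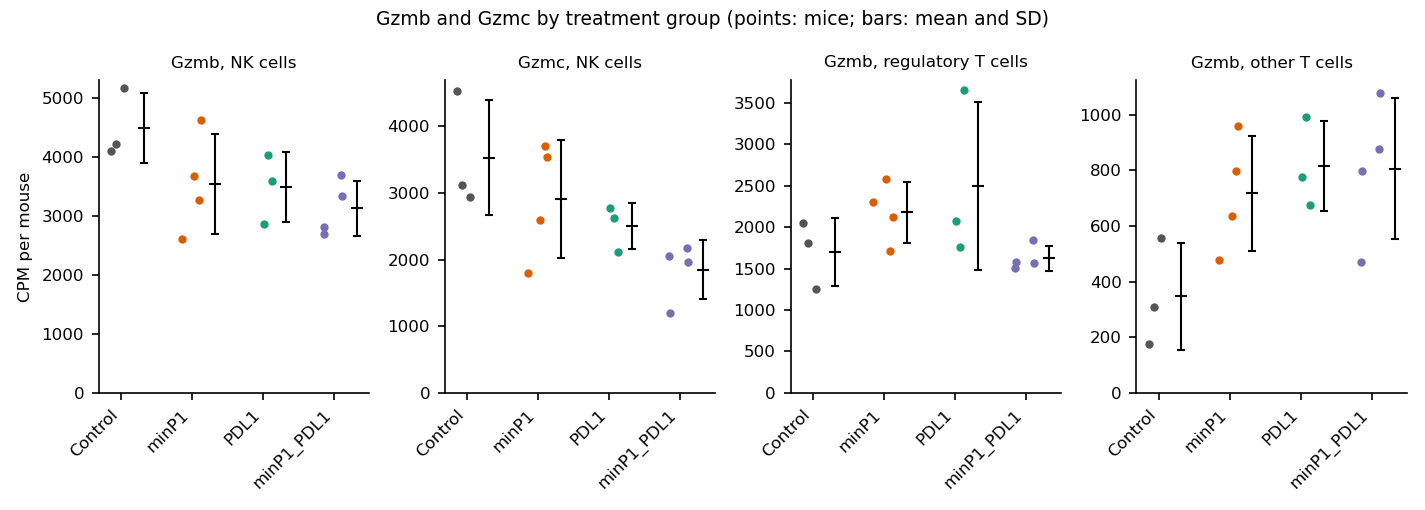
Level in CPM of Gzmb and Gzmc in NK cells and of Gzmb in regulatory T cells and other T cells, by treatment group. Points are mice, and the bars show mean and SD. Gzmc in NK cells is 1200 to 2179 CPM under minP1_PDL1 and 2946 to 4529 CPM in Control.

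In other T cells 8 of the 10 members were tested, and Gzmd and Gzme were left out by the filter on low counts. Gzmb was 556, 308.6 and 175 CPM in the Control mice. It was 479, 796, 960 and 634 CPM in minP1 mice, 991, 777 and 675 CPM in PDL1 mice, and 876, 470, 1079 and 798 CPM in minP1_PDL1 mice. The highest Control mouse overlapped with the lowest mouse of minP1 and of the combination, and PDL1 did not overlap with Control. The log2 fold changes against Control were 1.02 (SE 0.34) for minP1, 1.19 (SE 0.36) for PDL1 and 1.21 (SE 0.34) for the combination, with edgeR adjusted p of 1.00, 0.792 and 0.996. With no filter on low counts the same fit gave adjusted p of 0.0498, 0.00961 and 0.00259 for these, and the cause was not tested. In the other T cells with Cd8 reads Gzmb was at 371 ± 326 CPM in Control, 1298 ± 663 CPM in minP1, 1312 ± 303.8 CPM in PDL1 and 1479 ± 708 CPM under the combination, and such cells made up 27.2%, 34.9%, 34.0% and 29.8% of the class.

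Over the members of other T cells, 2 had an unadjusted p under 0.05 for minP1 against Control, 1 for PDL1 and 1 for the combination against Control, 0 and 0 for the combination against each agent, and 1 for the interaction. All genes gave 3.51%, 6.19%, 4.87%, 3.27%, 5.57% and 4.7%. The fold change was above 0 for 8 of 8 members under minP1, 6 of 8 under PDL1 and 8 of 8 under the combination, with medians of 1.11, 0.73 and 1.16 beside a median of all genes of 0.04, -0.04 and 0.02. These 3 comparisons share the 3 Control mice, and under DESeq2 the median of all genes for PDL1 against Control was 0.16. The groups did not overlap for 1 member under minP1 (Gzmf), 2 under PDL1 (Gzmb and Gzmm) and 0 under the combination against Control, and for 0 and 0 in the other pairs, beside 6.13%, 9.09%, 5.36%, 2.96% and 5.52% of all genes. The interaction for Gzmb was -1.002 (SE 0.46, edgeR adjusted p = 0.9998). Gzmf was read in all 4 minP1 mice at up to 18.0 CPM and in no Control mouse, so its fitted fold change depends on the prior count and is not given. The summed NK markers were at 881 CPM in Control mice, 978 CPM after minP1, 660 CPM after the antibody and 872 CPM after both.

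In regulatory T cells 5 members passed the filter: Gzma, Gzmb, Gzmc, Prf1 and Nkg7. Gzmb was 1248, 1803 and 2048 CPM in Control mice, 2298, 1709, 2121 and 2580 CPM in minP1 mice, 1764, 2076 and 3655 CPM in PDL1 mice and 1842, 1504, 1568 and 1577 CPM in minP1_PDL1 mice. All groups overlapped with Control. The combination was below PDL1 by a log2 fold change of -0.64 (SE 0.22, edgeR adjusted p = 0.999), and the interaction was -1.02 (SE 0.31, edgeR adjusted p = 1.00). With no filter on low counts the interaction had an edgeR adjusted p of 0.0275. Between the combination and minP1 all 5 members were below 0, with Gzma at 139 ± 149 against 597 ± 554 CPM (log2 fold change -2.12, SE 0.84) and Nkg7 at 269 ± 179 against 606 ± 192 CPM (-1.18, SE 0.48), each at an edgeR adjusted p of 0.9998. Without cells of a doublet score above 0.5 the value for Gzma was -1.29. With no filter on low counts Gzma was called lower under the combination than under minP1 (-2.11, edgeR adjusted p = 4.29e-05), in Control (-1.63, edgeR adjusted p = 0.0386) and under PDL1 (-1.73, edgeR adjusted p = 0.0152), and Gzmc higher than under PDL1 (3.22, edgeR adjusted p = 0.0151), where 1 mouse with 1010 CPM set the mean. The filtered fit gave the same directions, at edgeR adjusted p of 0.9998, 1.00, 0.999 and 0.999, the groups overlapped in all 4, and the cause was not tested. The NK marker sum in regulatory T cells moved the same way, at 893 ± 200 CPM under the combination (614 to 1082 CPM) against 1473 ± 75.1 CPM under minP1 (1413 to 1570 CPM), and its part in the result was not tested. The members with an unadjusted p under 0.05 numbered 0, 1, 0, 3, 1 and 1 in the 6 comparisons, beside 3.99%, 3.96%, 4.13%, 4.45%, 4.85% and 4.1% of all genes.

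In CD8 T cells, with 10 to 37 cells per mouse, 0 of 10 members had an unadjusted p under 0.05 in any comparison, where all genes gave 2.38%, 3.47%, 3.74%, 4.47%, 4.74% and 3.71%. Gzmb was at 2385 ± 1136 CPM in Control, 2306 ± 1329 CPM in minP1, 2543 ± 451 CPM in PDL1 and 3009 ± 1367 CPM under the combination, and all groups overlapped. Prf1 was at 413 ± 142, 369 ± 108, 330 ± 167 and 366 ± 112 CPM in the same order. Gzmk was at 7.11 ± 9.94 CPM in Control and 35.3 ± 23.3 CPM under the combination without overlap (log2 fold change 2.24, SE 1.34, edgeR adjusted p = 0.9999). The groups did not overlap for 1 (Gzmm), 0, 1 (Gzmk), 1 (Gzmk) and 0 members in the 5 pairs, beside 5.49%, 9.90%, 5.49%, 3.04% and 5.21% of all genes. Between the combination and minP1 9 of 10 members were above 0, with a median of 1.37 beside -0.03 over all genes. With SE of 0.40 for Gzmb and above 1 for Gzma, Gzmc, Gzmd, Gzme, Gzmf, Gzmk and Gzmm, smaller differences were not detectable with these cells. With no filter on low counts Gzmc (-1.50) and Gzmf (-1.72) were called for minP1 against Control, Gzma (2.38) for the combination against Control, and Gzma (1.498) and Gzmd (2.58) for the combination against minP1, with adjusted p of 0.0250, 0.00107, 1.09e-05, 0.0312 and 0.000994 in that order. The filtered fit gave the same directions, at edgeR adjusted p of 1.00, 1.00, 0.9999, 0.9999 and 0.9999.

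Over all kept cells together the members with an unadjusted p under 0.05 numbered 0, 2, 1, 2, 0 and 0 in the 6 comparisons, and all genes gave 6.94%, 6.58%, 10.4%, 6.01%, 4.22% and 4.49%. The shares of cells with a read were tested by an exact permutation of mice, two-sided, over 10 genes, 4 classes and 5 pairs of groups. Of the 200 tests 0 passed the correction, and the smallest adjusted p was 0.714; with so few mice the count of 0 was nearly fixed by the design. An exact permutation p of 0.0286, the smallest that 4 mice against 3 or 4 can give, was reached by 5, and 3 against 3 cannot go below 0.1. Among these 5, Gzmc was read in 29.5 ± 4.0% of NK cells under the combination and 38.9 ± 5.8% under PDL1. Prf1 was read in 6.98 ± 2.14% of regulatory T cells under the combination and 14.8 ± 1.26% in Control. Gzma was read in 30.4 ± 2.92% of other T cells under the combination and 20.2 ± 3.56% under minP1, and Gzmc in 11.3 ± 2.72% under the combination and 3.94 ± 4.06% under PDL1. The fifth was Gzmf in regulatory T cells, with 2.02 ± 0.29% under minP1 and 0.53 ± 0.92% in Control. After thinning to 10000 reads none of the 5 was at that smallest p (exact permutation p of 0.143, 0.0857, 0.0857, 0.171 and 1.00 in the order given), and Gzmc in other T cells was read in 6.15% under the combination and 2.02% under PDL1. At that depth 4 other tests of the 200 reached an exact permutation p of 0.0286. Among these was Gzmd in NK cells, with 5.69 ± 1.51% under minP1 and 9.95 ± 2.54% in Control.

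Other genes of the granule pathway were followed in 11 lists, and in each list 0 genes were called higher and 0 lower in every class and comparison. Inhibitors that protect the killer cell from its own granzymes were read beside them: Serpinb9, the inhibitor of granzyme B, was at 892 CPM in NK cells, 287 CPM in CD8 T cells and 88.0 CPM in regulatory T cells. Serpinb9 in regulatory T cells had the smallest p of the 6 inhibitors in the table (combination against Control, log2 fold change -1.94, SE 0.44, edgeR adjusted p = 0.940). Serpinb6b was at 689, 646 and 85.9 CPM in those classes, and Serpinb9b at 350 CPM in NK cluster 0 and 129 CPM in cluster 6. Serglycin, the proteoglycan that holds granzymes in the granule, is encoded by Srgn and was at 2115 CPM in NK cells, 4195 CPM in regulatory T cells and 8744 CPM in mast cells or basophils. Ctsc, the protease that activates granzymes, was at 112 CPM in NK cells and 2415 CPM in macrophages. Of the 8 genes of matrix and processing, Ctsh (all cells, combination against Control, 0.67, edgeR adjusted p = 0.338) and Ctsw (regulatory T cells, interaction, -1.90, edgeR adjusted p = 1.00) had the smallest p. Of the 13 genes of transport and release in the table these were Vamp2 (CD8 T cells, minP1 against Control, 2.19, edgeR adjusted p = 1.00) and Sytl2 (regulatory T cells, combination against minP1, -1.25, edgeR adjusted p = 0.9998).

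Regulators and partners of the NK and T cell programme gave no call either. Eomes, a T-box factor of NK and CD8 T cells, was at 536 CPM in NK cluster 0 and 199 CPM in cluster 6, and Ccl5 at 3880 and 459 CPM, so both went with Gzma and against Gzmc. Both are among the leading genes of cluster 0 over all other cells, so this is a description and no independent support. Among 22 transcription factors the smallest p were those of Stat5b in regulatory T cells (combination against Control, -1.38, edgeR adjusted p = 1.00) and Bhlhe40 in NK cells (minP1 against Control, -0.36, edgeR adjusted p = 1.00), and among 12 cytokine receptors those of Il2rb in regulatory T cells (combination against minP1, -0.60, edgeR adjusted p = 0.9998) and Il2ra in other T cells (combination against minP1, 2.05, edgeR adjusted p = 0.9999). Among the 8 cytokines Ccl3 in all cells (combination against Control, 0.66, edgeR adjusted p = 0.2997) and Ccl4 (PDL1 against Control, 0.63, edgeR adjusted p = 0.595) had the smallest p. Tnf in CD8 T cells led the 6 other killing ligands (combination against PDL1, 2.16, edgeR adjusted p = 1.00), followed by its interaction (2.88, edgeR adjusted p = 0.9999). For the 10 genes of the TGF-beta pathway, which restrains granzyme expression, these were Tgfbr2 (all cells, combination against minP1, -0.30, edgeR adjusted p = 0.729) and Smad3 (CD8 T cells, combination against PDL1, 5.97, edgeR adjusted p = 1.00). The 14 receptors gave Pdcd1 in NK cells (combination against PDL1, -2.77, edgeR adjusted p = 0.694) and Tigit in all cells (combination against minP1, 0.74, edgeR adjusted p = 0.596), and the targets of granzymes gave Bid in NK cells (PDL1 against Control, 1.35, edgeR adjusted p = 0.951) and Gsdmd in all cells (combination against Control, 0.44, edgeR adjusted p = 0.384). The 2 other granzyme genes gave Gzmg in all cells (PDL1 against Control, -4.74, edgeR adjusted p = 0.665) and in NK cells (-4.76, edgeR adjusted p = 0.951), with 7.95 ± 8.89 CPM in PDL1 and 210 ± 230 CPM in Control NK cells.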

How the data were processed

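The 10 genes and the gene lists were chosen with earlier results of these data known. Adapters were removed with cutadapt 2.10 and Bowtie2 2.3.4.1 placed the reads on the mm10 transcriptome, per the labels; the authors counted with their own scripts and a modified BD Rhapsody workflow, kept barcodes above the knee of total reads and assigned mice and doublets from hashtag reads. The deposited table holds raw counts of reads, not normalized and not collapsed to molecules, for 22836 genes and 8262 barcodes. The 147 barcodes that the authors' names mark as doublet (141) or not detected (6) belong to no mouse and were left out; 0 barcode numbers were shared between mice. Of 8115 barcodes of mice, 383 over 25% mitochondrial reads were left out (7732 kept, beside 7613 cells that the submitters state for their own filter), with at least 201 genes each; no doublet caller was used as a filter, since 24.5% of cells scored above 0.5.

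Cells were clustered in Python 3.11.15 with scanpy 1.11.5 and leidenalg 0.10.2 (2000 variable genes without the granzymes, Prf1 and Nkg7, 30 components, 20 neighbours, resolution 1). A cluster was named where its top 50 genes, in at least 25% of its cells, held at least 3 markers of a class. Levels are summed reads per class and mouse as CPM, over mice with at least 10 cells. Reads were tested in edgeR 4.0.16 (R 4.3.3; TMM, filterByExpr, quasi-likelihood, 14 mice in 1 fit, no covariate), with DESeq2 1.42.0 as an alternative. Shares of cells were tested by exact permutation (scipy 1.17.1). The scripts were checked on simulated data. Named were the 10 genes everywhere, of each list the 2 of smallest p, and the most alike genes. Some other genes of the lists were named for their levels, outside this rule. Intervals cover counting error only. Transcripts came from GENCODE and promoters from RefSeq; identities were computed with biopython 1.88 and figures with matplotlib 3.10.9. ILC1-like cells were not tested because no cluster took that name. Alternatives were other normalization, filters, resolution, clustering with the genes, leaving out cells or mice, and a replicate block; the NK clusters apart, the fit without non-immune clusters a minimum of 5 cells and the comparison with neutrophils without cells of high doublet score were added after seeing the data.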

Additional observations from a re-analysis of the deposited data

Results flagged for a closer look

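In groups of 4 mice, 74 combinations of a gene, a class and a group were screened for a mouse far from the other 3, and 8 were found. The rule flags about 1 in 20 of independent, normally spread values. CPM are skewed and the genes share mice, so the count of 8 cannot be set against chance. In NK cells Gzmf was at 1983 CPM in minP1_PDL1 mouse 3, with 29.2 to 275 CPM in the others. In CD8 T cells Gzmd was at 77.7 CPM in minP1 mouse 4 (others 2.23 to 4.41 CPM), and Gzmk at 70.2 CPM in minP1_PDL1 mouse 4 (others 22.2 to 25.1 CPM). Gzme at 324 CPM (others 0 to 51.4 CPM) and Gzmf at 1027 CPM (others 0 to 82.6 CPM) stood apart in the CD8 T cells of the same mouse, minP1_PDL1 mouse 1. In regulatory T cells Gzmc was at 1567 CPM in minP1 mouse 4 (others 11.8 to 29.6 CPM) and at 1010 CPM in minP1_PDL1 mouse 2 (others 2.42 to 36.4 CPM). Gzma in other T cells was at 1103 CPM in minP1_PDL1 mouse 4 (others 170 to 319 CPM).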

How the results depend on the processing

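No member with an unadjusted edgeR p under 0.05 between groups reversed the direction of that difference where it was recomputed. Orders of classes did turn. Without cells of doublet score above 0.5, regulatory T cells and other T cells passed neutrophils in mean Prf1. Other T cells also passed neutrophils in mean Gzmb. edgeR called 0 genes in every class and comparison, and the replicate number as a replicate block also gave 0 in all 30; same-numbered mice of different groups had deviations with a mean r of 0.059 in all cells (5 of 19 pairs over 0.1) and -0.0019 in NK cells (0 of 19), so the numbers were not taken as pairs. DESeq2 moved the median log2 fold change of all genes by over 0.1 in 7 of 30 comparisons, at most from -0.04 to 0.16 (other T cells, PDL1 against Control), and RLE normalization in 0. By DESeq2 the counts, in the order minP1, PDL1 and the combination against Control, the combination against minP1 and against PDL1, and the interaction, were 7, 21, 14, 16, 41 and 6 in NK cells. They were 5, 8, 12, 9 and 7 in CD8 T cells from PDL1 against Control on, 10, 10, 19, 3, 10 and 3 in regulatory T cells, 14, 40, 15, 4, 14 and 6 in other T cells, and 40, 57, 165, 48, 8 and 11 in all cells. With no filter on low counts edgeR called 5, 2, 10, 8, 2 and 1 genes in CD8 T cells, 3, 3, 2 and 3 in the last 4 comparisons of regulatory T cells, and 3, 5, 2 and 3 in the first 4 of other T cells; the cause was not tested. Without cells of doublet score above 0.5, 1 gene was called in other T cells (PDL1 against Control). Leaving out 1 mouse gave 0 to 1 genes in NK cells for the combination against minP1 (1 without minP1_PDL1 mouse 2), 0 to 1 in CD8 T cells for PDL1 against Control and for the combination against PDL1 (1 without PDL1 mouse 1), and 0 to 2 in all cells for the combination against Control (2 without PDL1 mouse 2). Of the share tests 0 were called with at least 3 reads (smallest adjusted p 0.942), after thinning (0.866) or without 1 mouse (0.667 to 0.893), which the smallest p of these group sizes nearly fixed and which shows no stability. As a mean over cells, Gzmc in NK cells was 1434 CPM and Nkg7 1633 CPM. With the members used for clustering, Gzmc in other T cells was 170 CPM. Without cells of high doublet score, Prf1 was 47.2 CPM in macrophages and 18.0 CPM in neutrophils, and Nkg7 229 and 79.3 CPM. At resolution 0.5 no CD8 T or other T class was found, and the alternatives for ILC1-like cells were not run. CD8 T cells, with 10 to 37 cells per mouse, set the loosest limits.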
